A study of Homo sapiens with 12 samples.

Results

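The RAS GTPases described here are NRAS, HRAS, RRAS and RRAS2, chosen by gene symbol among the 12931 genes of the deposited tables, in which all 4 were listed with reads in every library. Their transcripts were counted by RNA sequencing in WM1366, a human cell line from a cutaneous melanoma that is known for an activating mutation of NRAS itself. There were 12 libraries, 4 each of combination R1, combination R2 and control. The R1 and R2 samples carry the diet label of a combined MEK and CDK4/6 inhibitor, and the control samples that of a control diet. The series concerns melanoma that acquired resistance to such combinations and describes xenograft tumours that progressed. The sample labels instead describe cells in Tu2% culture medium, and their treatment text names palbociclib (a CDK4/6 inhibitor, 0.1 µM) and PD0325901 (a MEK inhibitor, 1 nM) for all samples, also those of control. What distinguishes R1 from R2 is not stated in the labels. Nor is it stated whether replicates came from different tumours or cultures, so p-values measure only the spread between these samples.

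RAS proteins are small membrane-bound GTPases that switch between an inactive GDP-bound and an active GTP-bound state. Exchange factors such as SOS1 load them with GTP, and GTPase-activating proteins such as neurofibromin return them to the inactive state. In the GTP-bound state they engage effectors, among them the RAF kinases, which start the MEK-ERK cascade, and PI3 kinase. NRAS is one of the genes most often mutated in cutaneous melanoma, and the drugs of this series act downstream of it, on MEK and on the cyclin D-dependent kinases. HRAS is a close relative with the same effectors. RRAS (R-Ras) is best known for integrin activation and cell adhesion, and RRAS2 (TC21) is a transforming member of the R-Ras branch that can engage PI3 kinase.

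The recovered reads in the listed genes numbered 20003891 to 39009384 per library. Values are normalised read counts, which do not correct for gene length. A gene is said to rise or fall where limma on log2(value + 0.5) gave a Benjamini-Hochberg adjusted p under 0.05 over all 12931 genes. By this test 43.8% of genes changed in R1 against control (22.4% higher and 21.4% lower) and 28.4% in R2 against control (13.6% higher and 14.8% lower). In R2 against R1 46.8% changed (22.8% higher and 24.0% lower), so that a call of a single gene is common here. The groups separated on the first pair of principal components (44.3% and 30.1% of the variance), and R1 replicate 2 stood apart on the next one (8.65%). Within groups some libraries were closer than others (Pearson's r of log2(value + 0.5)). In control, r was 0.996 for replicates 1 and 2 and 0.995 for 3 and 4, against 0.983 to 0.990 otherwise. In R2, r was 0.990 for 1 and 2 and 0.996 for 3 and 4, against 0.975 to 0.986 otherwise. R1 did not split this way. The labels do not say whether such pairs share a source, and the tests treat all 4 libraries of a group as separate. Of 9 melanocyte lineage markers MITF, PMEL and RAB27A were listed, summing to 63.2 to 82.3 in R1, 48.4 to 51.9 in R2 and 73.3 to 89.1 in control, while MLANA, TYR, DCT, TYRP1, SOX10 and S100B were not analysed here. The sum covers opposite changes. PMEL, a pigment cell structural protein gene, was at 27.1 ± 6.14 in R1, 8.81 ± 2.61 in R2 and 5.32 ± 1.15 in control, and rose by 2.24 on the log2 scale in R1 against control and by 0.66 in R2 against control, the R2 call being lost without control replicate 1 or 2 or R2 replicate 2 or 3. MITF, the melanocyte master regulator, fell by 1.11 in R1 and by 0.70 in R2, and RAB27A fell by 0.44 in R1 and by 1.15 in R2. Of 6 markers of undifferentiated melanoma 5 were listed, summing to 913 to 1319 in R1, 1752 to 2032 in R2 and 1988 to 2192 in control, with AXL, a receptor tyrosine kinase, at 825 ± 144 in R1, 1441 ± 96.5 in R2 and 1584 ± 80.1 in control (SD, n = 4 each). In bulk samples such as these, fewer cells of a type and less RNA per cell cannot be told apart.

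NRAS transcripts were several-fold more abundant in R1 than in both other groups. RRAS2 transcripts fell in R1 and rose in R2, whereas neither HRAS nor RRAS passed the test in any of the 3 comparisons. In R1 replicates 1 to 4 NRAS stood at 951.0, 849, 1005.0 and 1109. In R2 it stood at 129, 129, 139 and 181, and in control at 135, 134, 108 and 127. The lowest R1 library was thus far above the highest library of R2 and of control, while R2 and control overlapped, with R2 replicate 4 the highest of those 8. Means were 978 ± 109 in R1, 144 ± 24.8 in R2 and 126 ± 12.6 in control (SD, n = 4 each). The R1 mean was 7.77 times that of control, a log2 difference of 2.95 (SE 0.13, 95% confidence interval 2.68 to 3.23, limma adjusted p = 6.15e-10). This was the rank of 68 from the highest among the 12931 differences of R1 against control.

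R2 did not pass the test for NRAS against control, with a log2 difference of 0.19 and an interval of -0.09 to 0.46 (limma adjusted p = 0.304). Set directly against R1, NRAS was lower in R2 by 2.77 on the log2 scale (interval -3.04 to -2.49, limma adjusted p = 1.24e-09). These values rested on 19344 to 39191 recovered reads per library in R1, 2762 to 4465 in R2 and 2071 to 3438 in control. Ordered by mean normalised read count, NRAS was number 116 of the 12931 genes in R1, number 1361 in R2 and number 1596 among control libraries. The comparisons of R1 and of R2 with control share the control libraries.

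**Figure D1:**
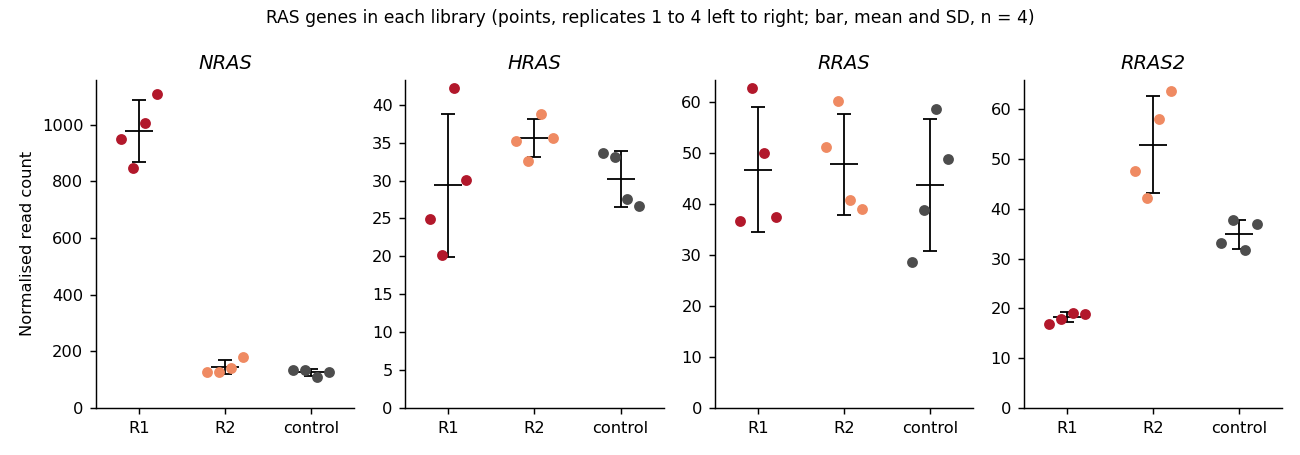
Normalised read count (vertical axes, each from 0) of NRAS, HRAS, RRAS and RRAS2 in R1, R2 and control, 1 point per library with the mean and SD (n = 4). NRAS is at 849 to 1109 in R1 against 108 to 181 in the other libraries, RRAS2 forms 3 levels that do not overlap, and the groups overlap for HRAS and RRAS.

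HRAS, the closest relative of NRAS in this set, did not follow it. HRAS stood at 24.9, 20.2, 42.2 and 30.1 in R1 replicates 1 to 4. It stood at 35.3, 32.6, 38.8 and 35.6 in R2, and at 33.6, 33.1, 27.5 and 26.6 in control. The R1 libraries held both the lowest and the highest of the 12 values, with replicates 2 and 3 at the ends, and all groups overlapped. The coefficient of variation of HRAS reached 32.3% in R1, against 7.05% in R2 and 12.2% in control. Its log2 difference was -0.09 in R1 against control (interval -0.47 to 0.30, limma adjusted p = 0.719), 0.24 in R2 against control (interval -0.14 to 0.62, limma adjusted p = 0.346) and 0.32 in R2 against R1 (interval -0.06 to 0.70, limma adjusted p = 0.151). The last of these passed the threshold without R1 replicate 3, where it was 0.51 (limma adjusted p = 0.0104). The 3 intervals do not reach the size of the change in NRAS, but they leave room for smaller changes in HRAS.

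RRAS also overlapped between all groups. It stood at 36.8, 62.7, 50.0 and 37.5 in R1, at 51.2, 60.3, 40.8 and 39.0 in R2, and at 28.7, 38.8, 58.7 and 48.8 in control. Its spread within groups was wide, with coefficients of variation of 26.2% in R1, 20.7% in R2 and 29.6% in control. In control the highest library held 2.05 times the value of the lowest. The log2 difference was 0.11 in R1 against control (interval -0.37 to 0.58, limma adjusted p = 0.71), 0.15 in R2 against control (interval -0.32 to 0.63, limma adjusted p = 0.647) and 0.04 in R2 against R1 (interval -0.43 to 0.52, limma adjusted p = 0.887).

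RRAS2, the other R-Ras member, gave a level of its own in each group. It stood at 16.9, 17.9, 19.0 and 18.9 in R1, at 47.7, 42.1, 58.0 and 63.6 in R2, and at 33.1, 37.8, 31.7 and 37.0 in control. Every R1 library was below every control library, and every R2 library was above every control library. Means were 18.2 ± 1.01 in R1, 52.9 ± 9.74 in R2 and 34.9 ± 2.94 in control (SD, n = 4 each). RRAS2 fell by 0.92 on the log2 scale in R1 against control (interval -1.19 to -0.65, limma adjusted p = 5.8e-05) and rose by 0.58 in R2 against control (interval 0.30 to 0.85, limma adjusted p = 0.00376). In R2 against R1 it was higher by 1.50 (interval 1.22 to 1.77, limma adjusted p = 7.72e-07), number 210 from the highest of 12931. NRAS and RRAS2 therefore moved in opposite directions in R1 and again between R2 and R1, and in R2 against control RRAS2 passed the test where NRAS did not. Calls fell on 2 of the 4 genes in R1 against control, on 1 in R2 against control and on 2 in R2 against R1. These numbers are close to what the shares of all genes called (43.8%, 28.4% and 46.8%) give for 4 genes, so the number of calls is no result about the family.

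**Figure D2:**
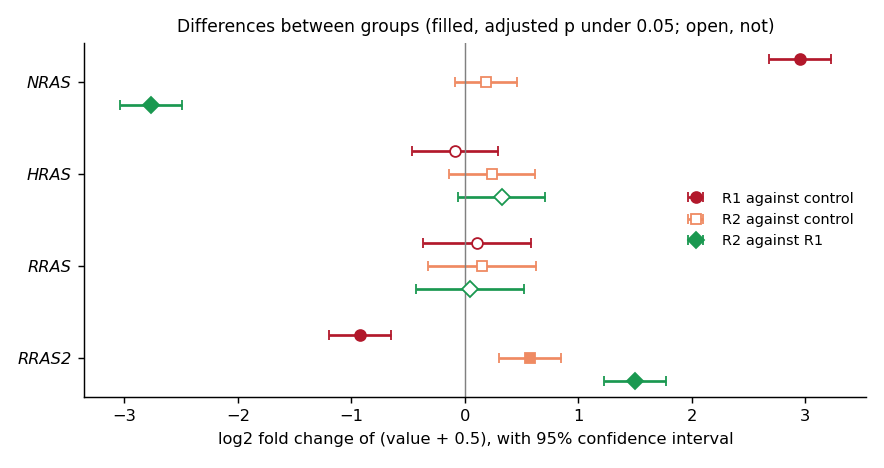
Log2 fold change of value + 0.5 (horizontal axis) for each RAS gene in R1 against control, R2 against control and R2 against R1, with the 95% confidence interval from limma, and filled symbols where the adjusted p was under 0.05. NRAS lies at 2.95 in R1 against control and at 0.19 in R2 against control, RRAS2 lies on opposite sides of 0 in these comparisons, and every interval of HRAS and RRAS includes 0.

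The makeup of the 4 genes' summed values differed accordingly. NRAS held 91.1% ± 1.68 of the sum in R1, 51.2% ± 3.72 in R2 and 53.6% ± 4.54 in control (SD, n = 4 each). RRAS2 held 1.70% ± 0.13 in R1, against 18.8% ± 2.19 in R2 and 14.9% ± 0.75 in control. The shares of HRAS were 2.71% in R1, 12.7% in R2 and 12.9% in control, and those of RRAS were 4.45% in R1, 17.3% in R2 and 18.7% in control. Because shares add to a fixed total, the rise of NRAS lowers the shares of the other 3 in R1 whether or not they changed. The sum of all 4 reached 1073 ± 107 in R1, against 281 ± 26.4 in R2 and 235 ± 8.02 in control. Without NRAS the sum came to 94.3 ± 14.6 in R1, 136 ± 2.00 in R2 and 109 ± 9.62 in control, and the R2 libraries were above all others.

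**Figure D3:**
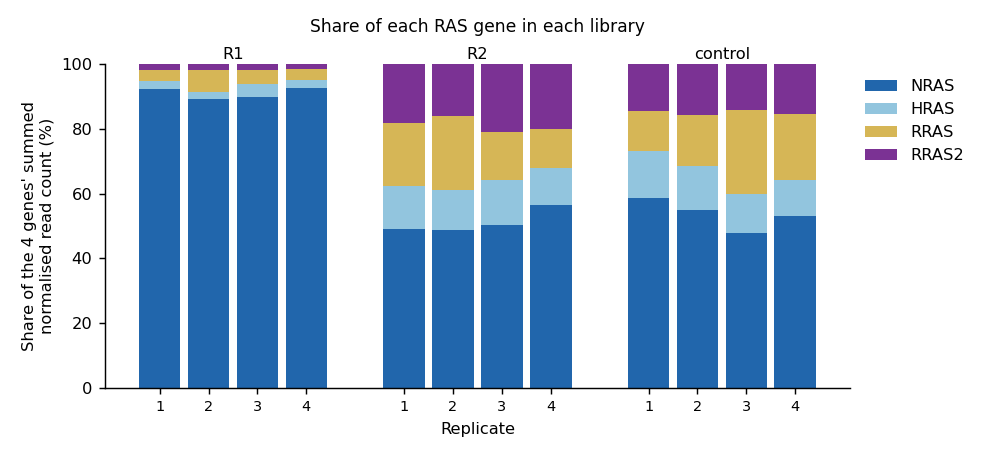
Share (%) of NRAS, HRAS, RRAS and RRAS2 in the sum of their normalised read counts, 1 stacked bar per library for R1, R2 and control. NRAS takes 89.4% to 92.8% of the sum in R1, against 48.8% to 56.7% in R2 and 47.8% to 58.7% in control.

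Levels of different genes were compared per kilobase of merged exon sequence, since the normalised counts grow with transcript length. By GENCODE release 29 the merged exons span 4449 bases in NRAS, 1854 in HRAS, 1160 in RRAS and 3453 in RRAS2. On this scale NRAS stood at 220 ± 24.4 per kilobase in R1, 32.4 ± 5.57 in R2 and 28.3 ± 2.84 in control. RRAS stood at 40.3 ± 10.6 in R1, 41.2 ± 8.52 in R2 and 37.7 ± 11.2 in control. HRAS stood at 15.8 ± 5.11 in R1, 19.2 ± 1.35 in R2 and 16.3 ± 1.98 in control. RRAS2 stood at 5.27 ± 0.29 in R1, 15.3 ± 2.82 in R2 and 10.1 ± 0.85 in control. In R1 the order of mean levels per kilobase was therefore NRAS, RRAS, HRAS and RRAS2, and in R2 and control RRAS, NRAS, HRAS and RRAS2. The ranges of RRAS and NRAS overlapped in R2 and in control, and those of HRAS and RRAS2 overlapped in R2. NRAS was above RRAS in every R1 library. Within R2 and control, RRAS was above NRAS except in R2 replicate 4 and control replicate 1. HRAS was above RRAS2 in every R2 library. The order of the genes was not tested.

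The position of each gene and the behaviour of the genes beside it were examined next, in GRCh38 coordinates. NRAS lies on chromosome 1, bases 114704469 to 114716894, and RRAS on chromosome 19, bases 49635292 to 49640201. HRAS lies on chromosome 11, bases 532242 to 537287, and RRAS2 on the same chromosome arm, bases 14277926 to 14364506. All 4 are on the minus strand and no other annotated gene overlaps them. The library kit does not mark strand, and the annotation holds processed pseudogenes of RRAS2 (RRAS2P1 and RRAS2P2), so reads from near-identical copies could be counted to either.

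DENND2C, an exchange factor gene for RAB GTPases 34.0 kb from NRAS, was at 0.566 ± 0.201 in R1, 2.48 ± 0.982 in R2 and 1.26 ± 0.221 in control. It fell by 0.73 in R1 against control (limma adjusted p = 0.0243), a call lost without control replicate 1 or 2 or R1 replicate 1 or 3.

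Among the 14 tested genes within 1 Mb of NRAS, 3 rose and 4 fell in R1 against control, where 22.4% of all genes rose and 21.4% fell, with a median log2 difference of 0.16 against 0.01 over all genes. Besides DENND2C the genes that fell included BCAS2, a splicing factor gene, at -0.62, and TRIM33, a transcriptional cofactor gene, at -1.03. The genes that rose were PHTF1 at 0.32, SIKE1 at 0.74 and AP4B1 at 1.18. None of the 14 came near the 2.95 of NRAS. In R2 against control, where 13.6% of all genes rose, 9 of them rose and 0 fell, with a median of 0.40, but the 9 became 4 without R2 replicate 4 and 5 without R2 replicate 3 or control replicate 3. Apart from the nearest neighbours, these genes were named after their values were seen, as called genes in the window.

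Over the wider window of 10 Mb, 39 of 92 genes around NRAS (42.4%) rose in R1 against control and 8 (8.70%) fell, beside 22.4% higher and 21.4% lower over all genes. The median log2 difference there was 0.30. On chromosome 11, around RRAS2 and HRAS, more genes fell than rose. Within 10 Mb of RRAS2, 54 of 81 genes (66.7%) fell and 7 (8.64%) rose in R1 against control, with a median of -0.67. Within 10 Mb of HRAS, 67 of 96 (69.8%) fell and 6 (6.25%) rose, with a median of -0.66, and these windows share genes. Around RRAS 46 of 349 (13.2%) rose and 95 (27.2%) fell, with a median of -0.09.

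RRAS2, at -0.92 in R1, was thus among many lower genes within 10 Mb, while HRAS, at -0.09, was not called in a region where most genes were. Within 1 Mb of RRAS2 the picture was mixed, as 3 of 7 genes fell and 2 rose in R1 against control (median -0.29). These 7 ranged from -0.70 to 2.41, so that RRAS2 was below all of them. The 2 that rose had mean values under 5, so they were not tested when only genes with a mean value of at least 5 were kept. Their calls held in the other 20 alternative analyses. Of the 35 genes within 1 Mb of HRAS, 27 fell and 1 rose in R1 against control, with a median of -0.71, and the 1 was lost without control replicate 1 or 2 or R1 replicate 3. Its nearest tested neighbours were RNH1, the ribonuclease inhibitor gene, at -0.46 (limma adjusted p = 0.00632), and LRRC56, 240 bases away, at -0.40 (limma adjusted p = 0.133). In R2 against control 28 of the 81 genes around RRAS2 (34.6%, beside 13.6% of all genes) rose and 4 fell (2 without control replicate 1 or 3), with a median of 0.23, and RRAS2 itself was at 0.58. Around NRAS 30 of 92 (32.6%) rose and 5 fell in R2 against control. In R2 against R1 63 of the 81 genes around RRAS2 were higher and 1 lower (77.8% higher, beside 22.8% of all genes, median 0.86, with 2 lower without R1 replicate 1 or R2 replicate 3), and 72 of the 96 around HRAS (75.0%) were higher and 3 lower. The number of copies of these regions was not measured here, and its part in these values was not tested.

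The genes nearest to RRAS2 were FAR1, a fatty acyl reductase gene 546 kb away, and COPB1, a coatomer subunit gene 78.9 kb away. FAR1 stood at 35.9 ± 5.08 in R1, 87.3 ± 6.71 in R2 and 48.3 ± 9.68 in control. It fell by 0.41 in R1 against control (limma adjusted p = 0.0332, up to 0.109 and lost without control replicate 1, 2 or 4 or R1 replicate 2 or 3) and rose by 0.87 in R2 against control (limma adjusted p = 0.000497). COPB1 fell by 0.45 in R1 against control (limma adjusted p = 0.00639) and was at 0.03 in R2 against control. Beside RRAS, PRR12 fell by 0.80 and SCAF1 by 0.46 in R1 against control, while RRAS was at 0.11.

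**Figure D4:**
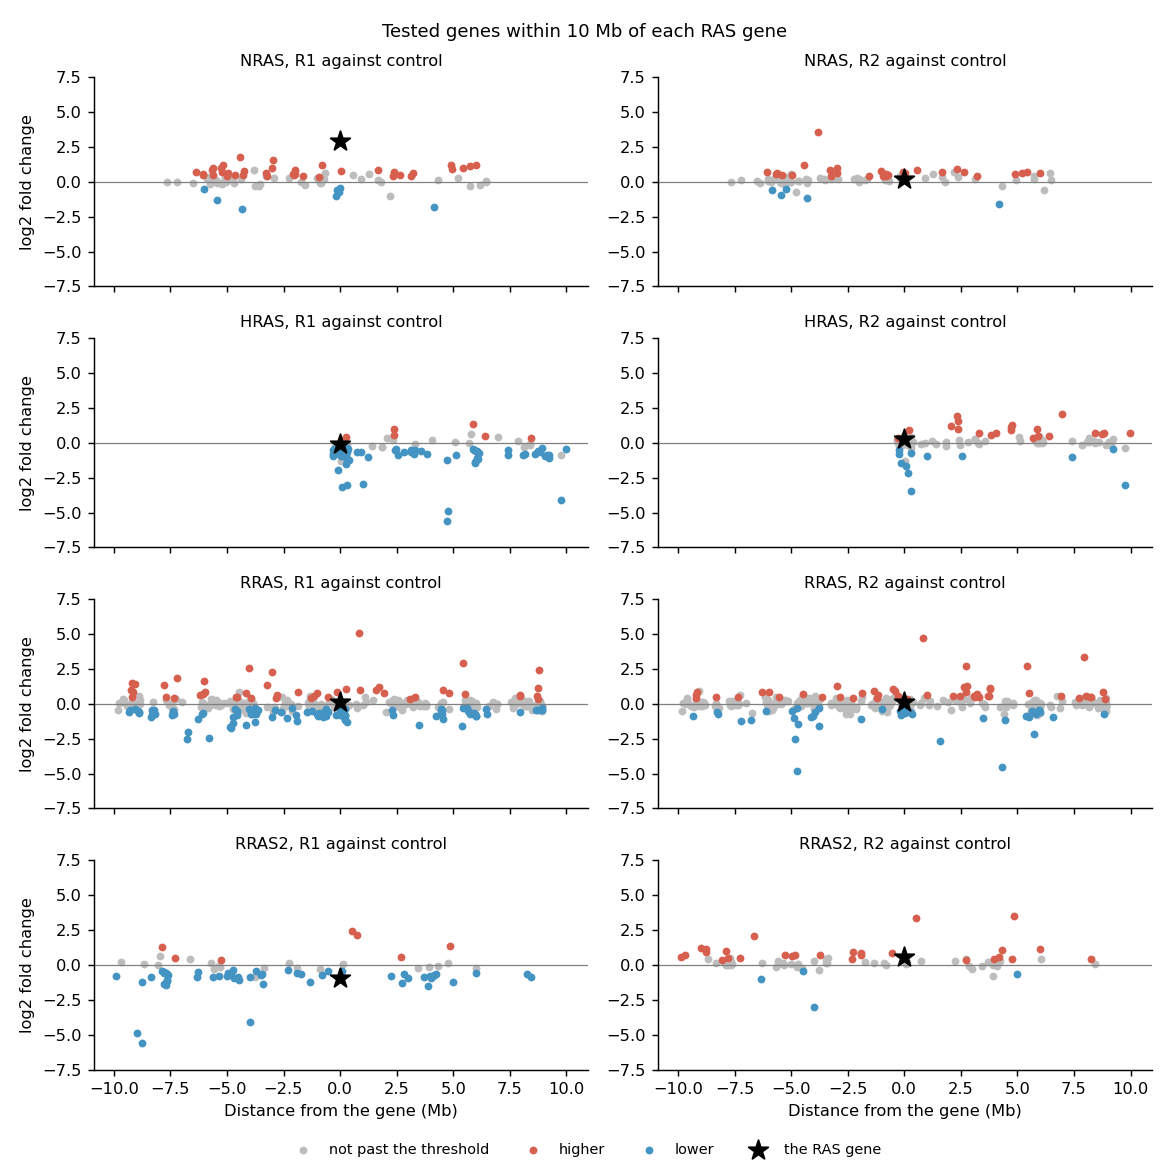
Log2 fold change of each tested gene within 10 Mb of NRAS, HRAS, RRAS and RRAS2 (vertical axis) against its distance from the RAS gene in Mb (horizontal axis), for R1 against control (left) and R2 against control (right), coloured by the call, with the RAS gene as a star. NRAS stands at 2.95 above all genes of its window in R1, while 66.7% of the genes around RRAS2 and 69.8% of those around HRAS are called lower.

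The genes whose levels over the 12 libraries were most like each RAS gene were picked by Pearson's r of log2(value + 0.5) among 10398 genes with a mean value of at least 5. These coefficients mostly follow the differences between the 3 groups and are given as a description. For NRAS they were KIF21B, a kinesin gene (r = 0.990), TNFAIP8L2 (r = 0.989), G0S2, an inhibitor of fat breakdown (r = 0.987), FAM101A (r = 0.985) and CORO2B, a coronin gene (r = 0.982). Unlike NRAS, all 5 were at under 1 in R2 and control. KIF21B, for example, was at 24.9 ± 5.73 in R1, 0.275 ± 0.199 in R2 and 0.253 ± 0.068 in control, and G0S2 at 63.5 ± 14.1 in R1, 0.106 ± 0.080 in R2 and 0.137 ± 0.093 in control.

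For RRAS2 the most alike genes were SSX1, a cancer-testis antigen gene (r = 0.992), CACHD1 (r = 0.981) and FARP1 (r = 0.979). SSX1 stood at 0.330 ± 0.099 in R1, 34.4 ± 13.4 in R2 and 7.25 ± 0.922 in control, with groups in the same order as RRAS2 over a far wider range. For HRAS they were ASNA1 (r = 0.954), ARHGDIA, a GDP-dissociation inhibitor gene (r = 0.947), and ALYREF, an mRNA export factor gene (r = 0.922). In R1 ARHGDIA stood at 641, 505, 925 and 761, with replicate 2 lowest and replicate 3 highest, as in HRAS. For RRAS they were MAN2B1, a lysosomal mannosidase gene (r = 0.948), DBP, a circadian transcription factor gene (r = 0.947), and NRN1 (r = 0.940). None of those for HRAS or RRAS was called in any of the 3 comparisons.

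The other genes of RAS signalling were described by lists, whose shares called are read beside the 43.8% of all genes called in R1 against control and the 28.4% in R2 against control. Of 16 listed RAS-like GTPases, 8 rose and 3 fell in R1 against control (median log2 difference 0.18), and 7 rose and 1 fell in R2 against control (median 0.29, against 0.03 over all genes). The share called was 68.8% in R1 and 50.0% in R2, above that of all genes in both, with 16 genes behind it. The 7 became 4 without control replicate 2 or R2 replicate 4. RASL10B, a small GTPase gene, was at 7.09 ± 1.56 in R1, 47.9 ± 8.91 in R2 and 37.2 ± 3.74 in control, and fell by 2.33 in R1 (limma adjusted p = 9.41e-08). RHEBL1, a relative of the mTORC1 activator RHEB, was at 14.6 ± 3.45 in R1, 3.03 ± 0.434 in R2 and 3.85 ± 0.901 in control, and rose by 1.79 in R1 (limma adjusted p = 5.71e-06). RALB, which acts downstream of RAS through RAL exchange factors, rose by 1.16 in R1 and by 0.70 in R2. RAP1A, a GTPase of integrin adhesion, rose by 0.97 in R1 and by 1.01 in R2.

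Both listed exchange factors were SOS proteins. SOS1 was at 26.0 ± 5.40 in R1, 60.4 ± 4.20 in R2 and 42.4 ± 5.56 in control. It fell by 0.71 in R1 (limma adjusted p = 0.00164) and rose by 0.51 in R2 (limma adjusted p = 0.019), a call lost without control replicate 3 or R2 replicate 4. SOS2 did not pass the test in either comparison, at -0.18 in R1 and 0.16 in R2. SOS1 and RRAS2 thus had the same order of group means, with R1 lowest and R2 highest.

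Of 9 GTPase-activating proteins and their partners, 2 rose and 1 fell in R1 against control (median 0.15), and 2 rose and 1 fell in R2 against control (median 0.11). The share called was 33.3% in each, below that of all genes in R1 and near it in R2. NF1, which encodes neurofibromin, was at 88.0 ± 17.1 in R1, 119 ± 9.62 in R2 and 65.8 ± 8.51 in control. It rose by 0.86 in R2 (limma adjusted p = 0.000453), and its rise of 0.40 in R1 (limma adjusted p = 0.0333) was lost without control replicate 2, 3 or 4 or R1 replicate 1, 2 or 4, at an adjusted p of up to 0.101. RASA1, the p120 GTPase-activating protein, rose by 0.71 in R2. RASA3 rose by 0.33 in R1.

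Of 26 genes for lipid processing, trafficking and turnover of RAS proteins, 5 rose and 3 fell in R1 against control (median 0.00), and the 3 became 1 without control replicate 1, 2 or 3 or R1 replicate 2. In R2 against control 2 rose and 3 fell (median 0.10), the 2 becoming 1 without control replicate 3 or 4 or R2 replicate 1 or 2. The share called was 30.8% in R1 and 19.2% in R2, below that of all genes. LGALS3, the galectin-3 gene, was at 35.2, 54.4, 41.2 and 33.1 in R1, at 2.04, 3.21, 3.40 and 2.71 in R2, and at 11.7, 14.2, 22.1 and 19.2 in control. The 3 groups did not overlap. It rose by 1.27 in R1 (limma adjusted p = 0.00026) and fell by 2.35 in R2 (limma adjusted p = 1.85e-06). FNTA, a subunit of the farnesyltransferase that attaches the lipid anchor of RAS, rose by 0.64 in R1. Of the depalmitoylating enzymes, ABHD17B rose by 0.57 in R1 and ABHD17C fell by 0.62 in R2.

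Of 19 RAS effectors and their scaffold partners, 3 rose and 1 fell in R1 against control (median 0.05), and 2 rose and 2 fell in R2 against control (median 0.11). The share called was 21.1% in each, below that of all genes. Over 21 alternative analyses the R2 counts ranged from 0 to 4 higher, the 0 being without R2 replicate 1, and from 1 to 2 lower. BRAF and ARAF, kinases that start the MEK-ERK cascade, did not pass the test against control. BRAF was at -0.01 in R1 and 0.25 in R2, and ARAF at -0.22 in R1 and 0.11 in R2. PPP1CB, the phosphatase subunit that works with SHOC2 and RAS to activate RAF, fell by 0.78 in R1, and PLCE1, a phospholipase effector, rose by 0.89 in R1. RASSF5 rose by 1.33 in R1 and fell by 1.11 in R2 (limma adjusted p = 0.0165, lost without R2 replicate 1), and SNAP23 fell by 0.68 in R2. BRAF and ARAF are named here after their values were seen.

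Of 19 genes known to respond to ERK signalling, 5 rose and 4 fell in R1 against control (median 0.21), and 2 rose and 10 fell in R2 against control (median -0.55). The share called was 47.4% in R1, near that of all genes, and 63.2% in R2, above it. The 10 became 6 without control replicate 3 or 4, and the 2 became 1 without control replicate 3 or 4 or R2 replicate 1, 3 or 4. In R2 against R1 4 were higher and 12 lower (median -0.74, against -0.00 over all genes), the 4 becoming 2 without any 1 control library, R1 replicate 3 or 4, or R2 replicate 3 or 4. DUSP6, the ERK phosphatase, was at 137, 135, 114 and 110 in R1, at 53.7, 44.9, 49.5 and 54.9 in R2, and at 65.9, 55.8, 96.5 and 103 in control. It rose by 0.66 in R1 (limma adjusted p = 0.00581) and was lower by 0.61 in R2 (limma adjusted p = 0.0144, lost without control replicate 3 or 4). R1 was above control and R2 below it in every library, and the control libraries split into a lower and a higher pair.

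SPRY4, a feedback inhibitor of receptor signalling, rose by 1.30 in R1 and was at -0.25 in R2. EPHA4, an ephrin receptor gene, rose by 1.61 in R1 and by 1.40 in R2. ETV1, an ETS transcription factor gene, fell by 1.00 in R1. It was also lower in R2, at -0.56 (limma adjusted p = 0.0251, lost without control replicate 3 or 4 or R2 replicate 1 or 3). PHLDA1 fell by 2.35 in R2 and was at -0.38 in R1. Among the other ERK phosphatases, DUSP5 rose by 1.51 in R1 and was lower by 0.82 in R2 (limma adjusted p = 0.0435, up to 0.140 and lost without control replicate 3 or 4, R1 replicate 4 or any 1 R2 library), and DUSP4 fell by 2.88 in R2. The 3 DUSP genes were singled out after their values were seen, apart from the list itself.

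**Figure D5:**
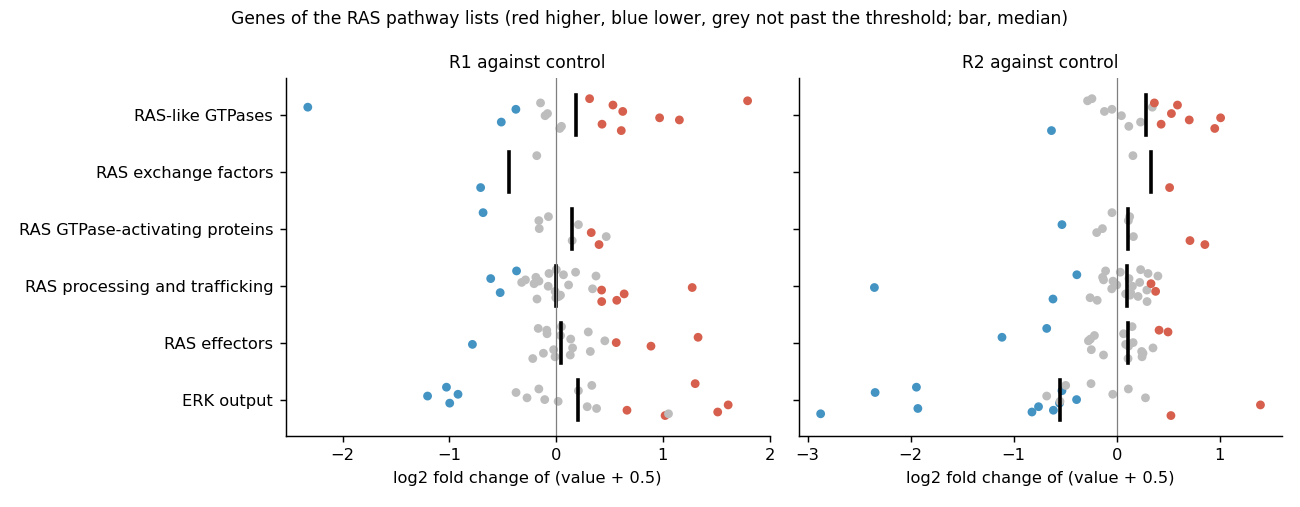
Log2 fold change of value + 0.5 (horizontal axis) of each gene in the 6 RAS pathway lists for R1 against control and R2 against control, coloured by the call, with a bar at each list's median. The ERK output list has 10 genes lower and 2 higher in R2 against control, while in R1 its genes lie on both sides of 0.

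Markers of other cell types were summed beside these results, since xenografts hold mouse host cells. Of 10 endothelial markers 4 were listed, of which TIE1, VWF and EGFL7 rose in R1 against control, summing to 375 to 499 in R1, 126 to 157 in R2 and 133 to 172 in control, mostly from TIE1 (394 ± 54.6 in R1, 135 ± 14.0 in R2 and 139 ± 14.6 in control libraries). VWF was at 4.49 ± 1.27 in R1, 0.937 ± 0.258 in R2 and 1.76 ± 0.686 in control (limma adjusted p = 0.00165 in R1 against control). EGFL7 was at 16.2 ± 3.32 in R1, 0.0073 ± 0.0145 in R2 and 3.61 ± 1.04 in control (limma adjusted p = 1.28e-06 in R1 against control, where it rose, and 3.42e-08 in R2 against control, where it fell). The endothelial markers CDH5 and KDR were not analysed here. The fourth listed marker, PECAM1, did not pass the test in R1 against control and fell in R2 against control (limma adjusted p = 0.0332, lost without control replicate 2, 3 or 4 or R2 replicate 3 or 4). It was at 2.55 ± 1.61 in R1, 0.697 ± 0.213 in R2 and 2.26 ± 1.33 in control. Of 13 leukocyte markers the tables list CSF1R and CD74, summing to 1509 to 2618 in R1, 592 to 659 in R2 and 624 to 1095 in control, nearly all of it CD74, which rose in R1 against control (limma adjusted p = 0.000192). PTPRC was not analysed here, and CSF1R was at 2.87 ± 2.25 in R1, against 0.539 ± 0.141 in R2 and 1.98 ± 0.904 in control. CSF1R did not pass the test in R1 against control (limma adjusted p = 0.493). The endothelial and leukocyte sums were thus higher in R1, but each followed mostly 1 gene, TIE1 or CD74, and PECAM1 and CSF1R were not called there.

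Of 10 fibroblast and pericyte markers 5 were listed, summing to 513 to 668 in R1, 741 to 826 in R2 and 626 to 740 in control. Most of this was THY1, at 491 ± 52.0 in R1, 553 ± 71.9 in R2 and 420 ± 34.5 in control, and other members moved differently. COL1A1 was at 105 ± 34.5 in R1, 216 ± 101.7 in R2 and 271 ± 47.2 in control, and fell by 1.41 on the log2 scale in R1 against control (limma adjusted p = 0.00268). LUM fell by 1.46 (limma adjusted p = 0.00173) and PDGFRB by 2.34 (limma adjusted p = 0.000297) in R2 against control, while THY1 was higher by 0.39 (limma adjusted p = 0.0231, lost without control replicate 1, 2 or 4 or R2 replicate 1 or 2). None of the 6 red cell markers was listed. Of 6 keratinocyte markers KRT10 was listed, at 23.0 to 34.7 in R1, 13.8 to 21.8 in R2 and 16.0 to 18.5 in control. Transcripts of the mitochondrial genome made up 2.17% to 3.28% of the values in R1, 4.02% to 9.63% in R2 and 5.86% to 10.9% in control. The part of these differences in the levels of the RAS genes was not tested.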

How the data were processed

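RNA was extracted with an RNeasy mini kit and made into TruSeq RNA v2 libraries, per the labels' protocols. STAR, edgeR and GRCh38 are named in the submitters' processing notes, without versions. Each deposited file gives a normalised signal per gene, which the authors scaled by library. In each library the values were multiples of a single step to within 0.001 reads (100% of them), which gave the whole reads back. A value of 3 reads was 0.0728 to 0.158. The mouse reads of any host cells were not separated here.

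Values were tested as log2(value + 0.5) with limma 3.58.1 under R 4.3.3, using moderated variances that follow the mean level. The fit held all 12 libraries and a mean for each group. P-values were two-sided, with Benjamini-Hochberg adjustment across the 12931 genes. The added 0.5 shrinks differences of low genes. The files held a signal where counts were possible, so edgeR 4.0.16 and DESeq2 1.42.0 served as alternatives on the recovered reads. The limma and edgeR steps were tested on simulated data. Positions came from GENCODE 29, in which 12263 genes (94.8%) were found by symbol, and neighbours were counted by the distance between gene bodies.

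Members, lists and naming rules were chosen with earlier results of these data known. From each list the rule named up to 3 called genes with the smallest p in R1 against control and up to 2 in R2 against control, with the nearest neighbours and the 5 (NRAS) or 3 most alike genes. Others are said to be chosen after their values were seen. Some genes meeting these criteria are not reported here.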

Additional observations from a re-analysis of the deposited data

Results flagged for a closer look

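For NRAS and RRAS2 the change against control differed between R1 and R2 by a direct test. NRAS in R2 minus R1 was -2.77 on the log2 scale (limma adjusted p = 1.24e-09), lower in 4 of 4 R2 libraries than in any R1 library. RRAS2 in R2 minus R1 was 1.50 (limma adjusted p = 7.72e-07), higher in 4 of 4 R2 libraries than in any R1 library. In 12 tests of a single library standing apart, 1 for each gene and group, none passed Dixon's criterion, where chance gives about 1 in 20.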

How the results depend on the processing

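The 4 genes were refitted in 3 comparisons under 21 alternatives, of which 12 left out 1 library each. Of 252 values, 244 kept their direction and their side of the threshold. NRAS stayed at 2.88 to 3.02 in R1 against control, and RRAS2 at -0.96 to -0.88 in R1 against control, 0.48 to 0.68 in R2 against control and 1.40 to 1.60 in R2 against R1, called in all 21. Leaving out 1 library changed the sign of values near 0. These were HRAS in R1 against control (-0.275 to 0.0737), and RRAS in R1 against control (-0.0746 to 0.266), in R2 against control (-0.030 to 0.311) and in R2 against R1 (-0.0731 to 0.196). HRAS in R2 against R1 ranged from 0.16 to 0.51 and was called without R1 replicate 3. The cause was not tested. Genes called numbered 4541 to 5877 in R1 against control, 2782 to 4408 in R2 against control and 4888 to 6206 in R2 against R1.

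After the mean of each group was taken off each gene, same-numbered libraries of different groups correlated at -0.31 to 0.387. Differently numbered libraries were not compared in this way, so these values cannot decide whether the numbers mark a pairing. With the replicate number as a replicate block, NRAS was at 2.95 in R1 against control (limma adjusted p = 5.49e-08), genes called numbered 5798, 3733 and 6162 in the 3 comparisons, and no call of the 4 genes changed.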
